A study of Mus musculus with 6 samples.

Results

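Goblet cells are the mucus-secreting cells of the gut lining, and 10 genes of their secreted products and of their differentiation were examined here in colon epithelium with and without Sel1L. The 10 genes were named as a fixed set, namely the mucus components Muc2, Tff3, Clca1, Fcgbp, Zg16 and Spink4, the endoplasmic reticulum (ER) isomerase gene Agr2, and the transcription factor genes Spdef, Foxa3 and Atoh1. Of these, 9 had an array probe set that names a single gene, among 19936 genes measured in all. Fcgbp was named only on 3 probe sets that also carry other genes, so it has no value here.

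Colon epithelium came from 8-week-old male mice on a C57BL/6J background, with 3 arrays labelled wild type and 3 labelled Sel1L knockout (Sel1L-delta-IEC). In the knockout, both copies of Sel1l carried loxP sites around exon 6, from the allele Sel1ltm1e(KOMP)Wtsi after removal of its lacZ-neo cassette with βActin-FLPe, and a Cre recombinase was driven by the villin-1 promoter (B6.SJL-Tg(Vil-cre)997Gum/J, backcrossed to C57BL/6J). The villin promoter is active across the intestinal epithelium, goblet cells included, so the design does not separate a deletion in goblet cells from one in their neighbours. The labels do not say whether the wild type mice carried the floxed allele or the Cre transgene, nor whether the replicate arrays come from different mice, so each p-value reflects only array-to-array spread, which may be technical. RNA of the epithelium in bulk was measured, so fewer goblet cells and less RNA per goblet cell cannot be told apart.

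Colonic goblet cells make one of the largest secreted proteins of the body, the gel-forming mucin MUC2, which is folded and disulfide-linked in the ER before it is glycosylated, packed into granules and released. AGR2, a member of the protein disulfide isomerase family, is needed for MUC2 production. Sel1L is the partner of the ubiquitin ligase HRD1 in ER-associated degradation, which disposes of proteins that do not fold. Goblet fate is set in steps: ATOH1 commits a crypt cell to a secretory fate, and SPDEF and FOXA3 act downstream in goblet differentiation and maturation.

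Promoter sequence (assembly GRCm38.p6) was at hand for 6 of the 10 genes, namely Agr2, Atoh1, Fcgbp, Foxa3, Muc2 and Spdef. The 250 bases before the start were read for these. The windows of Spdef and Foxa3 are shown because those genes had the largest differences between genotypes described below, and that of Muc2 because it encodes the main mucus protein. Each is written 5′ to 3′ on the strand of the gene, and capitals mark the ER stress element TGACGTG or the E-box CAGNTG on either strand. The Spdef window lies inside the annotated span of the gene. They are Spdef at chr17:27728952-27729201 on the minus strand, Foxa3 at chr7:19023540-19023789 on the minus strand and Muc2 at chr7:141690090-141690339 on the plus strand.
Spdef: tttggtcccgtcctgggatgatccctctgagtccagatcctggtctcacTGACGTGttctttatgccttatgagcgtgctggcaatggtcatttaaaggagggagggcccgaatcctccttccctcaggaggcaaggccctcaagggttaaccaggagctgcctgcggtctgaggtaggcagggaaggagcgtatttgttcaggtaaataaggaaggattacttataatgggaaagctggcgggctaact
Foxa3: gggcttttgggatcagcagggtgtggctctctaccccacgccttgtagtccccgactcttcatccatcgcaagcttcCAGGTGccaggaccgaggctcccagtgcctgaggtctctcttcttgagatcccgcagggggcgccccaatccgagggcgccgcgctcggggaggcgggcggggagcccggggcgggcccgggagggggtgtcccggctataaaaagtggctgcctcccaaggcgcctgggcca
Muc2: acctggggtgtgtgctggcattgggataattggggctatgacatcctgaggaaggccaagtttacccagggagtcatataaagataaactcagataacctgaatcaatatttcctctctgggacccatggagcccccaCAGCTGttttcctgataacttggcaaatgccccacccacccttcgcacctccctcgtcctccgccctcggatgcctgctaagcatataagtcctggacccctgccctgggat

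Both strands were searched for 6 motifs. TGACGTG, a core that XBP1 and ATF6 can bind, was found in 1 of the 6 windows, that of Spdef, and in 1.65% of all 32851 promoter windows of the same length. The E-box CAGNTG, the class of site that ATOH1 binds, was found in 3 windows (Fcgbp, Foxa3 and Muc2) and in 44.8% of all windows. CCACG, the part of the ER stress response element that XBP1 and ATF6 bind, was found in the Foxa3 window and in 28.3% of all windows. GGATGT, an ETS-type core, was found in the Muc2 window and in 9.46% of all windows. The forkhead site TGTTTAC (3.17% of all windows) and the ATF4-type element TGATGNAA (3.45%) were found in none of the 6. A TGACGTG followed by G also holds CCACG on the opposite strand, but the Spdef match is followed by T and does not. These matches describe letters in a short window and not binding.

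Sel1l itself lay lower on each of the knockout arrays, at 8.70, 9.06 and 8.66 against 9.45, 9.67 and 9.54 in wild type, in RMA values on a log2 scale. In a limma fit over all 19936 genes its change was -0.74 ± 0.11 (SE), with adjusted p = 0.018. The adjusted p passed 0.05, up to 0.087, when wild type array 1 or 2 or knockout array 1 or 3 was dropped. The probe set was not mapped to exon 6, so its remaining signal is no measure of how complete the deletion was. In the epithelial list, 10 of 10 markers such as Epcam, Vil1 and Krt8 lay above the mean array median of 6.34, and their mean level was 11.84 to 11.93 in wild type and 11.82 to 11.89 in the knockout. Few markers of other cells lay above that median, with 2 of 13 for macrophages and dendritic cells, 1 of 10 for T and NK cells, 1 of 9 for B and plasma cells, 1 of 8 for mast cells and 5 of 15 for fibroblasts, muscle and endothelium. The summed level of each of these lists overlapped between genotypes, apart from macrophages and dendritic cells (9.76 to 9.85 in wild type, 9.68 to 9.74 in the knockout) and B and plasma cells (10.57 to 10.60 against 10.48 to 10.52). The part of these cells in the goblet gene values was not tested.

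None of the 9 measured goblet genes passed the test between genotypes. Limma called 0 of 9 at an adjusted p under 0.05, where it called 1.63% of all genes (325, with 183 or 0.918% higher and 142 or 0.712% lower in the knockout). At an unadjusted p under 0.05 there were 2 of 9, Spdef and Foxa3, both higher in the knockout, against 13.3% of all genes in either direction and 7.72% in the higher direction. Values were higher in the knockout for 6 genes and lower for 3, with a median change of 0.11 against 0.019 over all genes. The arrays of the genotypes did not overlap for 3 of 9 genes (Spdef, Agr2 and Muc2), against 19.4% of all genes.

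**Figure D1:**
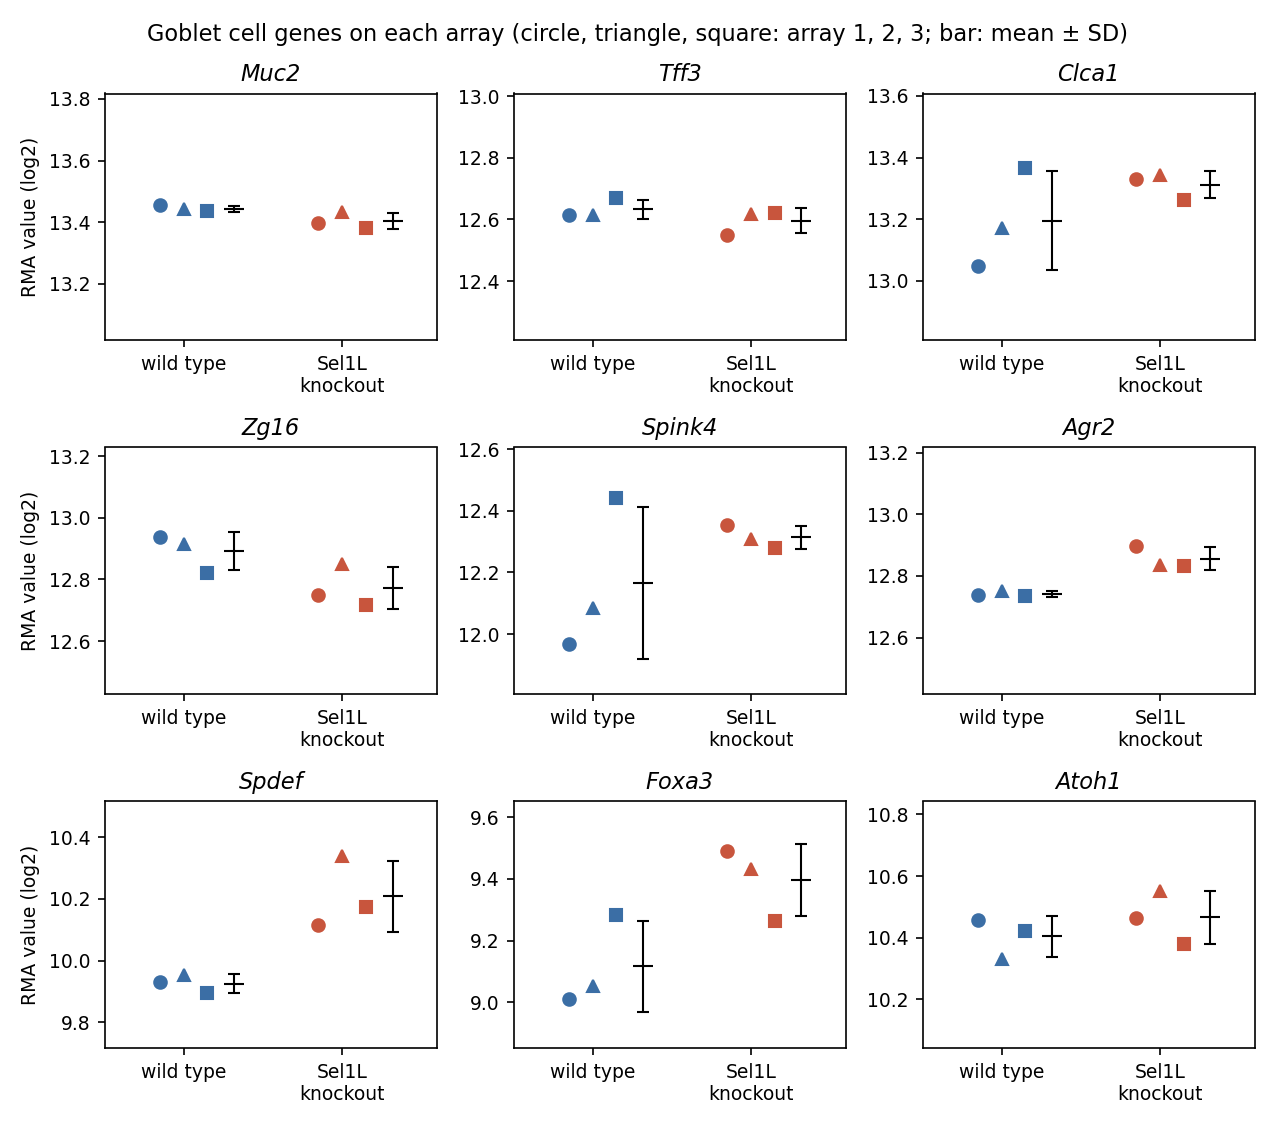
RMA values (log2) of the 9 measured goblet genes on each array, wild type in blue and knockout in red, with circle, triangle and square for arrays 1, 2 and 3 and the bar for mean ± SD (n = 3). Every panel spans the same height, and the knockout arrays lie above all wild type arrays for Spdef and Agr2, while Muc2 and Tff3 hardly spread.

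Among the mucus components, Muc2 was measured most tightly. Its levels were 13.45, 13.44 and 13.44 in wild type and 13.40, 13.43 and 13.38 in the knockout. Each knockout array was below each wild type array, but by little. The change was -0.040 ± 0.055 (SE) with limma's adjusted p = 0.82, and the 95% confidence interval of the difference ran from 10.9% lower to 6.17% higher in the knockout. The exact two-sided permutation p was 0.1, the smallest that 3 arrays against 3 can give. The deposited values on these arrays reached at most 14.07, so this probe set reads near the top of the scale. Clca1, Zg16, Agr2, Tff3 and Spink4 also read high, between 11.97 and 13.37.

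Tff3 encodes trefoil factor 3, a small peptide secreted with mucin that takes part in epithelial repair. It read 12.62, 12.62 and 12.67 in wild type and 12.55, 12.62 and 12.62 in the knockout, and the genotypes overlapped. The change was -0.037 ± 0.058 (limma's adjusted p = 0.84), with an interval from 11.1% lower to 6.78% higher. The sign of the Muc2 and Tff3 changes turned after quantile normalization, to 0.011 and 0.046, so neither has a settled direction. The Tff3 change was -0.020 without wild type array 3 and -0.014 without knockout array 1.

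Zg16 encodes a lectin-like mucus protein that binds the cell wall of Gram-positive bacteria. Its levels were 12.94, 12.91 and 12.82 in wild type and 12.75, 12.85 and 12.72 in the knockout. Knockout array 2 lay above wild type array 3, and the other knockout arrays lay below all wild type arrays. The change was -0.12 ± 0.065 (limma's adjusted p = 0.50), with an interval from 17.0% lower to 2.18% higher. After quantile normalization it was -0.060 (adjusted p = 0.74).

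Clca1 encodes an abundant mucus protein with metalloprotease activity, named after a chloride channel role it was first given. It read 13.05, 13.17 and 13.37 in wild type and 13.33, 13.34 and 13.26 in the knockout. The 3 knockout arrays stood close together (SD 0.043), while the wild type arrays spread (SD 0.16), and wild type array 3 was the highest of all 6. The change was 0.12 ± 0.086 (limma's adjusted p = 0.63), and it ran from 0.042 without wild type array 1 (adjusted p = 0.90) to 0.20 without wild type array 3 (adjusted p = 0.29).

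Spink4, which encodes a secreted protein of the Kazal-type protease inhibitor family, had the same shape. It read 11.97, 12.08 and 12.44 in wild type and 12.35, 12.31 and 12.28 in the knockout. Wild type array 3 again stood above every knockout array and the other wild type arrays below every one. The change was 0.15 ± 0.11 (limma's adjusted p = 0.65), and it ran from 0.051 without wild type array 1 (adjusted p = 0.91) to 0.29 without wild type array 3 (adjusted p = 0.14). Of all genes, 90.2% had a smaller SD within genotype than Spink4, whereas 0.747% had a smaller one than Muc2.

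Agr2, the ER isomerase gene, lay slightly above wild type on each knockout array. Levels of 12.74, 12.75 and 12.73 in wild type stood against 12.90, 12.84 and 12.83 in the knockout. The change was 0.11 ± 0.056 with limma's adjusted p = 0.44, an interval from 0.990% lower to 18.3% higher, and an exact permutation p of 0.1. Hspa5, another ER folding gene, which encodes the chaperone BiP, rose by 0.85 ± 0.087 (limma's adjusted p = 0.0064), with an interval from 56.8% to 107% higher. The difference between the changes of Agr2 and Hspa5 was not itself tested.

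The largest differences among the 9 genes were those of 2 transcription factors. Spdef, the ETS factor of goblet maturation, read 9.93, 9.95 and 9.89 in wild type and 10.11, 10.34 and 10.17 in the knockout. All 3 knockout arrays stood above all wild type arrays, which lay within a narrow band. The change was 0.28 ± 0.072, or 21.6% higher (95% interval 8.48% to 36.4%), with unadjusted p = 0.0041 and limma's adjusted p = 0.12. It was called in 2 of 17 alternative fits, at an adjusted p of 0.041 with an intensity trend in the prior and of 0.047 after the dimmer 50% of genes were dropped. Those 2 fits also called more genes in all, 614 of 19936 and 598 of 9968, against 325 of 19936 in the main fit. The adjusted p of Spdef ran from 0.041 to 0.28 over all 17 fits. With each array left out the change stayed between 0.22 and 0.33.

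Foxa3, a forkhead factor of goblet differentiation, read 9.01, 9.05 and 9.28 in wild type and 9.49, 9.43 and 9.26 in the knockout. Knockout array 3 fell just below wild type array 3, so the genotypes overlapped. The change was 0.28 ± 0.092, or 21.4% higher (95% interval 4.86% to 40.6%), with unadjusted p = 0.016 and limma's adjusted p = 0.23. It was 0.36 without wild type array 3 (adjusted p = 0.11) and was not called in any of the 17 alternative fits.

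Atoh1, the factor that commits cells to the secretory lineage, read 10.46, 10.33 and 10.42 in wild type and 10.47, 10.55 and 10.38 in the knockout, and the genotypes overlapped. The change was 0.062 ± 0.069 (limma's adjusted p = 0.77), with an interval from 6.46% lower to 16.5% higher. It was 0.019 without knockout array 2, 0.0255 without wild type array 2 and 0.11 without knockout array 3. A p that misses the threshold does not show equal levels. The intervals of Muc2, Tff3 and Atoh1 allow falls of up to 10.9%, 11.1% and 6.46% and rises of up to 6.17%, 6.78% and 16.5%.

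**Figure D2:**
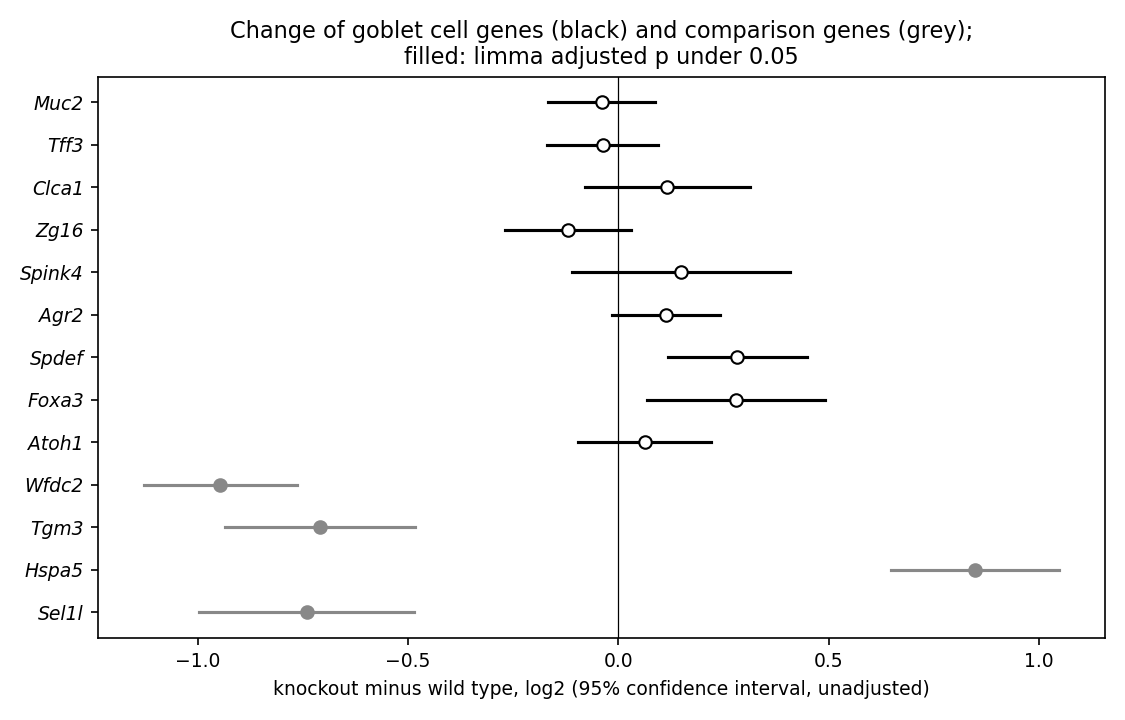
Log2 difference between knockout and wild type for each goblet gene (black) and for Wfdc2, Tgm3, Hspa5 and Sel1l (grey), positive where the knockout was higher, with unadjusted 95% confidence intervals, filled where limma's adjusted p was under 0.05. The intervals of Spdef and Foxa3 lie above 0 without passing the adjusted threshold, while the comparison genes lie between 0.71 and 0.95 away from 0.

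The goblet genes did not vary as 1 block across arrays. Centred on their own means, the profiles of Muc2 and Tff3 over the 6 arrays were the closest pair, with a root mean square difference of 0.035. Both genes were nearly flat, with SDs within genotype of 0.020 and 0.036, so this closeness does not show that they varied together. Clca1 and Spink4 (0.058) were also close. Zg16 and Foxa3 were farthest apart (0.24). Among the wild type arrays, array 3 was highest for Tff3, Clca1, Spink4 and Foxa3 and lowest for Muc2, Zg16, Agr2 and Spdef. Among the knockout arrays, array 3 was lowest for 7 of the 9 genes.

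Foxa3 had the widest range of the 9 over the 6 arrays (0.48). The 5 genes whose centred profiles lay nearest to it among all 19935 others were Pde2a (root mean square difference 0.033), Slc7a6 (0.037), Asph (0.037), Dcps (0.042) and Lars (0.043), where the median of all genes was 0.19. None of these 5 was called between genotypes, with changes of 0.22 to 0.29 and limma's adjusted p of 0.19 to 0.38. The matched profiles include the genotype difference, so these changes were bound to lie near that of Foxa3.

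Other goblet cell genes were read from a list of 30, of which 29 were measured. Limma called 1 of them, lower in the knockout, against 1.63% of all genes called in either direction. Wfdc2, which encodes a secreted protein of the whey acidic protein family, fell by 0.95 ± 0.079 (log2) with adjusted p = 0.0026, and in linear terms fell by 48.1%. It read 10.45, 10.42 and 10.52 in wild type and 9.58, 9.36 and 9.62 in the knockout, and the call held with each array left out. Of the 29 genes, 7 were higher and 3 lower at an unadjusted p under 0.05, against 7.72% and 5.62% of all genes. The median change was 0.12, against 0.019 over all genes.

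The genes next in order were Sytl2, a granule-docking protein gene (0.42 ± 0.084, limma's adjusted p = 0.054), and B3gnt6, the core 3 O-glycan synthase gene (-1.04 ± 0.25, adjusted p = 0.094). Sytl2 was called after quantile normalization (adjusted p = 0.043), with the intensity trend (0.017), after the dimmer 25% or 50% of genes were dropped and with array weights. B3gnt6 was called with the trend (adjusted p = 0.044), after the dimmer 50% were dropped (0.0497) and with the replicate number as a block (0.045). B3gnt6 read 9.16, 8.71 and 8.28 in wild type and 7.62, 8.11 and 7.30 in the knockout. Ern2, the IRE1 paralog of mucus-secreting cells, differed by -0.044 ± 0.074 (adjusted p = 0.86), and Creb3l1 by 0.011 ± 0.068 (adjusted p = 0.96). These 4 genes lie outside the naming rule and were chosen after their values were seen.

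Wild type array 3 stood apart from the other wild type arrays over many goblet genes. This pattern was noticed in these data, and the genes given for it were chosen after their values were seen. Ang4, an antimicrobial ribonuclease gene, read 9.76, 10.30 and 11.37 in wild type and 11.49, 11.40 and 11.38 in the knockout. Retnlb, which encodes the goblet product RELM-beta, read 10.59, 11.42 and 12.19 against 12.02, 11.95 and 11.87. Reg4, a secreted lectin gene, read 12.24, 12.28 and 12.80 against 12.88, 12.79 and 12.74. In all 3 genes wild type array 3 was within 0.5 of each knockout array, and the other wild type arrays were lower.

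Over all 19936 genes, wild type arrays 1 and 2 lay below every knockout array in 3751. Over the goblet genes of both lists together, 38 in all, they lay below every knockout array in 19. In 12 of those wild type array 3 did not, which is 31.6% of the 38, against 7.40% of all genes. This count was defined after the pattern had been seen in these goblet genes, and all of it rests on that same array. Its excess over all genes therefore supports nothing. Clca1, Spink4 and Foxa3 are among the 12. Dropping wild type array 3 was looked at in detail after that array had been seen to stand apart in these goblet genes. Without it, limma called 7 of the 29 other goblet genes in place of 1, where it called 1.52% of all genes, and with any of the other 5 arrays left out it called 1. The 7 were Reg4 (0.54, adjusted p = 0.020), Ang4 (1.39, adjusted p = 0.0091), Scin (0.60, adjusted p = 0.021), Capn9 (0.83, adjusted p = 0.0064) and Sytl2 (0.50, adjusted p = 0.025) higher, and Wfdc2 and B3gnt6 (-1.26, adjusted p = 0.047) lower. Of the 9 mucus and fate genes it then called 0, with 4 at an unadjusted p under 0.05, against 13.5% of all genes. These were Clca1, Spink4, Spdef and Foxa3.

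**Figure D3:**
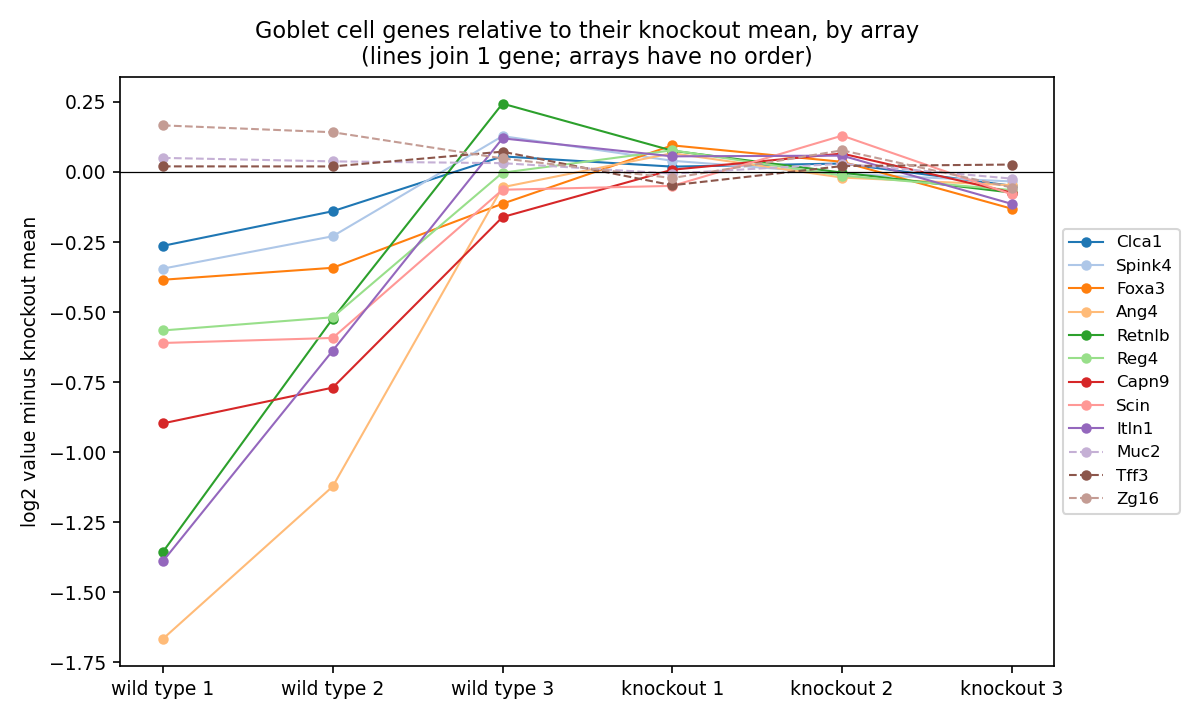
Values of 12 goblet genes on each array minus the gene's knockout mean (log2), with 1 line per gene and no order among arrays. Wild type arrays 1 and 2 lie below the knockout for the solid lines, by up to 1.67 for Ang4, wild type array 3 lies near 0, and Muc2, Tff3 and Zg16 (dashed) stay within 0.17 of it on all arrays.

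Wild type array 3 also stood nearer to the knockout than the other wild type arrays in Pnliprp2. This gene, which encodes a pancreatic-type lipase and is in the Paneth and small intestine list, read 6.25, 7.34 and 9.77 in wild type and 10.48, 10.09 and 10.11 in the knockout. Itln1, an intelectin gene that is in both this list and the goblet list and is among the 12 above, read 5.32, 6.07 and 6.83 against 6.77, 6.77 and 6.60. Of the 7 measured genes of that list, 3 lay above the array median, and 3 had a higher and 4 a lower mean in the knockout. The summed level of the list, Itln1 included, was 9.63 to 10.42 in wild type and 10.65 to 11.02 in the knockout. Pnliprp2 alone made up most of the sum on the knockout arrays. Lyz1, a defining Paneth gene, read 6.04, 6.38 and 6.18 against 6.00, 5.53 and 5.95. Defa24, another, read 3.03, 2.82 and 2.96 against 2.41, 2.88 and 2.73. The change of Lyz1 was -0.37 ± 0.13 (limma's adjusted p = 0.28) and that of Defa24 -0.26 ± 0.12 (adjusted p = 0.38). Lyz1 and Itln1 lay near the mean array median of 6.34 and Defa24 toward the lowest value on any array, 1.72. The part of Paneth cells in these values was not tested. The posterior Hox genes, which mark position along the gut, had mean levels of 7.43 to 7.62 in wild type and 7.39 to 7.54 in the knockout. The part of colon position in these values was not tested.

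Of the paralogs of the mucus genes, 13 of 19 measured had a lower mean in the knockout, against 8537 of all 19936 genes. Limma called 0 of the 19, where it called 1.63% of all genes. The 19 came from 21 listed mucin, trefoil, CLCA and AGR genes. At an unadjusted p under 0.05, 2 were higher and 7 lower, against 7.72% and 5.62% of all genes. The median change was -0.14. Muc4, a transmembrane mucin gene, read 10.30, 10.44 and 10.38 in wild type and 10.10, 9.76 and 9.93 in the knockout, a change of -0.44 ± 0.091 (adjusted p = 0.060). Clca3b, a close relative of Clca1, differed by -0.25 ± 0.060 (adjusted p = 0.10). Muc20, another transmembrane mucin gene, differed in the other direction, by 0.64 ± 0.13 (adjusted p = 0.053).

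With an intensity trend in the prior, Muc4, Clca3b, Muc13 and Muc20 were called, with adjusted p of 0.017, 0.0100, 0.017 and 0.027. That fit called more genes over the whole table too, 614 of 19936 against 325 without the trend. Muc13, a further transmembrane mucin gene and outside the naming rule, read 12.42, 12.52 and 12.36 in wild type and 12.18, 12.21 and 12.15 in the knockout (-0.25 ± 0.063, adjusted p = 0.12 in the fit without the trend). Clca genes are similar in sequence, and a probe set of 1 may pick up RNA of another. Absorptive colonocytes, which carry transmembrane mucins, had 4 of 16 listed genes called lower and 0 higher, against 0.712% and 0.918% of all genes. The 4 were Atp12a, Ms4a12, Scnn1b and Aqp8, and the median change of the list was -0.31. Of these, Atp12a was called in all 6 fits with an array left out, Ms4a12 in 3, Aqp8 in 2 and Scnn1b in 1, with adjusted p up to 0.13. Dropping wild type array 1 or 2 or knockout array 1 ended each of the calls of Ms4a12, Aqp8 and Scnn1b. The part of absorptive cells in the mucin values was not tested.

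Genes of granule release and of mucus processing after secretion were measured for 21 of 23 listed. Limma called 1, lower in the knockout, against 1.63% of all genes called in either direction. At an unadjusted p under 0.05, 3 were higher and 5 lower, against 7.72% and 5.62% of all genes. Tgm3 encodes a transglutaminase that cross-links MUC2 in the mucus layer. It read 12.23, 12.01 and 12.17 in wild type and 11.32, 11.34 and 11.63 in the knockout, and it fell by 0.71 ± 0.099 (log2) with limma's adjusted p = 0.013. The call was kept in 3 of the 6 fits with an array left out and ended when wild type array 1 or knockout array 1 or 2 was dropped, with adjusted p up to 0.069.

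Regulators of the choice between secretory and absorptive fate were all measured, 31 in number. Limma called 0, where it called 1.63% of all genes, and the median change was 0.0065. At an unadjusted p under 0.05, 4 were higher and 0 lower, against 7.72% and 5.62% of all genes. Those with the smallest p were Xbp1, the ER stress factor needed by secretory cells (0.25 ± 0.061, adjusted p = 0.10), Spib, an ETS factor (0.28 ± 0.080, adjusted p = 0.16), and Cdx2, the intestinal identity factor (0.28 ± 0.088, adjusted p = 0.20). The Notch effector gene Hes1, which restrains Atoh1, differed by 0.13 ± 0.070 (adjusted p = 0.49), and Foxa1, a relative of Foxa3, by 0.0065 ± 0.057 (adjusted p = 0.98). These 2 were chosen after their values were seen.

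The other secretory and crypt cell types gave a scale for these values. Of 14 enteroendocrine genes, limma called 1 lower, where it called 0.712% of all genes lower, and the median change was -0.077. The 1 called was the hormone gene Pyy (-0.49 ± 0.072, adjusted p = 0.017). Pyy was called in 1 of the 6 fits with an array left out, the one that dropped wild type array 3, and reached an adjusted p of 0.068 in the others. Of 10 tuft cell genes 0 were called and the median was 0.12, with Dclk1 at 0.23 ± 0.067 (adjusted p = 0.17). Of 11 stem and dividing cell genes 0 were called and the median was -0.10. Over all genes 1.63% were called, so 0 calls in lists this short say little. In contrast, of 20 ER folding and stress genes limma called 17 higher, against 0.918% of all genes, with a median change of 0.73. Among them were Sdf2l1 (1.17 ± 0.069), Derl3 (2.49 ± 0.17), Pdia6 (0.94 ± 0.075), Hyou1 (0.87 ± 0.073) and Hsp90b1 (0.68 ± 0.068). These ER genes were listed with their rise in these arrays known, so their count supports nothing. The changes of the 9 goblet genes ran from -0.12 to 0.28. Those of Muc2, Clca1, Zg16, Agr2, Tff3 and Spink4 were read high on the scale, where RMA can compress differences.

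**Figure D4:**
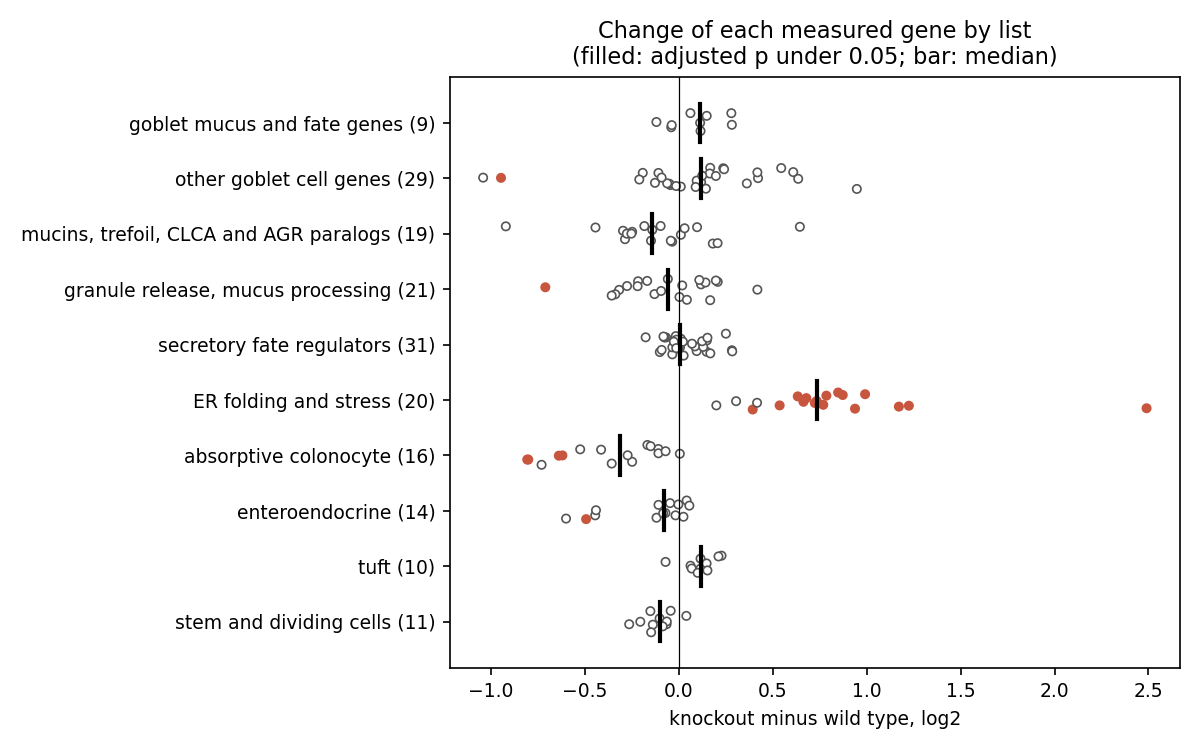
Change of each measured gene (knockout minus wild type, log2) by list, with the number of measured genes in brackets, filled where limma's adjusted p was under 0.05 and a bar at the median. The goblet mucus and fate genes lie between -0.12 and 0.28, whereas the ER folding and stress genes lie between 0.20 and 2.49.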

How the data were processed

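Total RNA of 6 samples was labelled as cDNA and hybridised to Affymetrix whole-transcript arrays. The submitters' processing notes name RMA for the deposited log2 values, with the software, build and probe set definition not given in the sources. RMA subtracts background, scales the arrays to each other and combines the probes of a set, which can compress differences at the top and bottom of the scale. Of 35556 probe sets, 21789 name 1 gene, 1621 several and 12146 none in the platform annotation. Symbols were updated through RefSeq (GRCm38.p6), and the probe set with the highest mean stood for each gene. Array medians were 6.32 to 6.36.

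The genotype test used lmFit and eBayes of limma 3.58.1 (R 4.3.3) with a single genotype term, two-sided, adjusted by Benjamini-Hochberg over 19936 genes, called under 0.05. Values after ± are moderated SEs for changes and SDs for levels (n = 3). The test was tested on simulated data. The 18 lists held 278 memberships, 263 of them measured. From each, called genes (up to 6) or the 3 with the smallest p were open to naming. Members and lists were chosen with earlier results of these data known. The 17 alternatives are described in the closing section. Python 3.11.15 drew the plots. The number of arrays limits the precision.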

Additional observations from a re-analysis of the deposited data

How the results depend on the processing

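Limma called 325 genes, 598 of 9968 without the dimmest 50% of genes, 614 with an intensity trend, 161 over all probe sets together, 4 without moderation, and 69 to 303 with an array left out. The count was 96 when wild type array 1 was dropped, 95 for wild type array 2, and 69, 120 and 187 for knockout arrays 1, 2 and 3. Of the 9 goblet genes, 1 (Spdef) was called without the dimmest 50% of genes and 1 (Spdef) with the intensity trend, and 0 in the other 15 alternatives. Of the genes in the other lists, 24 were called, 38 without the dimmest 50%, 41 with the trend, 0 without moderation, and 15 to 33 with an array left out (15 without knockout array 1). After quantile normalization the change of Muc2 was 0.011 and that of Tff3 0.046. The causes were not tested. Clca1, Zg16, Agr2, Spink4, Spdef, Atoh1 and Foxa3 kept their direction in all 17 alternatives, with adjusted p up to 0.95. Sel1l lost its call in 6.

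Replicate numbers are shared by the genotypes, but the deviations of same-numbered arrays correlated at -0.10, 0.15 and 0.15 across genes, so they were not treated as pairs. With the replicate number as a block, 217 genes were called and 0 of the 9 goblet genes. The 25% filter, median centring, a robust prior, array weights and the mean of probe sets changed no call of the 9.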
